A study of Mus musculus with 5 samples.

Results

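Messenger RNA of 5 genes that bind or export zinc was measured by RNA sequencing in mouse keratinocytes: the metallothionein genes Mt1, Mt2 and Mt4, the metal-sensing transcription factor gene Mtf1 and the zinc exporter gene Slc30a1. They were taken by name from 56691 gene rows, and each matched 1 row. The set, and its contrast of Mt1 and Mt2 with Mt4, was chosen by name with the CPM and fold changes of sorted over bulk cells in these same libraries in view, so those values are given for these 5 genes as a description, and no p-value is printed for them. The sorted group (GFP, 3 libraries) holds GFP-sorted cells labelled as epidermal stem cells and Lrig1 positive in genotype. The bulk group (2 libraries) holds cells labelled as epidermal basal cells, taken without the sort, with a wild-type genotype label. The sort and the genotype label thus change together between the groups and cannot be told apart. All came from back skin of mice aged 28 days. The construct that carries GFP, the gates and the number of animals per library were not stated in the labels.

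Metallothioneins are small, cysteine-rich proteins that hold zinc and copper ions in the cytosol. Mt1 and Mt2 are made in most tissues and are induced by zinc, glucocorticoids and oxidative stress, and in epidermis they are known from the basal, dividing layer. Mt4 is known from differentiating stratified epithelium. The protein of Mtf1 senses free zinc and binds metal response elements in the promoters of Mt1, Mt2 and Slc30a1, and the protein of Slc30a1 carries zinc out across the plasma membrane.

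Total counts were 85307002, 71410484 and 89080100 in GFP libraries 1, 2 and 3, against 56829330 and 105887450 in bulk libraries 1 and 2. GFP 3 stood apart from the other 4 libraries: its Xist count was 53714, against 0 to 8 elsewhere, its count of Ddx3y, a gene on the Y chromosome, was 62, against 1750 to 4462 elsewhere, and the labels give no sex. Levels are CPM (counts scaled to a common library size, TMM-adjusted). Genes of the basal keratinocyte list summed to 34620 to 43490 CPM in GFP libraries and 22500 to 25390 CPM in bulk. Suprabasal genes summed to 8992 to 12450 CPM in GFP libraries and 17730 to 22630 CPM in bulk, although the bulk cells are labelled basal. All 60 markers of 10 cell types had counts, and only Cldn5, an endothelial gene, was at 0 in a library.

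The promoter windows of the metallothionein genes and of Slc30a1 are shown because the core of the metal response element, the site that the Mtf1 protein binds, can be read in them. Each runs from 250 bases before to 50 bases after the RefSeq start, 5′ to 3′, on the + strand of GRCm38.p6. Capitals mark TGCACNC or TGCGCNC, and where the match is on the - strand its reverse complement is what appears. The windows are chr8:94178839-94179138 for Mt1, chr8:94172368-94172667 for Mt2, chr8:94136954-94137253 for Mt4 and chr1:191906531-191906830 for Slc30a1.
Mt1: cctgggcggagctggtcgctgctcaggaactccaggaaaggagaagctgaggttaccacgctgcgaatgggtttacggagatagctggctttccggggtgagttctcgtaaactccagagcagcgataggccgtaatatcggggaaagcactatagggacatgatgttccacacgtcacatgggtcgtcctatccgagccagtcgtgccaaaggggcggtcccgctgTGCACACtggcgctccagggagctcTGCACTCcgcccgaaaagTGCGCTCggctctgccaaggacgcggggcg
Mt2: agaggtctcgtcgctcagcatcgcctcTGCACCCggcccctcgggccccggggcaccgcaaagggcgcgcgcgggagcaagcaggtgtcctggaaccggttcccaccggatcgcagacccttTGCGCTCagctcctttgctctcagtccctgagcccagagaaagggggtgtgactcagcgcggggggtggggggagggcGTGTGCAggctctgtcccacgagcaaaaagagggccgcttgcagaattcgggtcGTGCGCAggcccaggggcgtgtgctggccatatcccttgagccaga
Mt4: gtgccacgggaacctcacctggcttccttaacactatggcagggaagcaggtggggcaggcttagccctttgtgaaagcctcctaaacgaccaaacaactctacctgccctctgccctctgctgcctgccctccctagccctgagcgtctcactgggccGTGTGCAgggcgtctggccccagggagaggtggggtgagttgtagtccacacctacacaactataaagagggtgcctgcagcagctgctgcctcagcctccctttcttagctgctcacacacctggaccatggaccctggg
Slc30a1: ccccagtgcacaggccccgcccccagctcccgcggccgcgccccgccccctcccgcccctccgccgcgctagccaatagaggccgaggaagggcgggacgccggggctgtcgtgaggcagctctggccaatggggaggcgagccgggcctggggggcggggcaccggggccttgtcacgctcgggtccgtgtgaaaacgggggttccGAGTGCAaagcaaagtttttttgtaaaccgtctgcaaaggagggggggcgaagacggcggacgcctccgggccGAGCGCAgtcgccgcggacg

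The Mt1 window held 3 matches, all on the + strand, which began 23 bases before and 2 and 20 bases past this RefSeq start. Mt1 has 3 coding transcripts in GENCODE M21, of 549 to 1085 bases, and only the window at this 1 start was searched. Sequence past the window, such as that before any later start, was not searched. The Mt2 window held 4 matches, 2 on each strand. Its window is set on a RefSeq start that lies 46 bases before the start in GENCODE M21. The Mt4 window held 1 match and the Slc30a1 window 2, and the Mtf1 window held 0. In GENCODE M21 Mtf1 starts before the first base of that window, so the sequence upstream of that start was not searched. No matches overlapped. Of 32851 RefSeq windows of 300 bases, 25.7 percent held at least 1 match, 7.11 percent at least 2, 1.97 percent at least 3 and 0.517 percent at least 4. A match is a run of letters, and binding was not measured.

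The ubiquitous metallothioneins Mt1 and Mt2 were higher in every sorted library than in either bulk library. Mt1 (ENSMUSG00000031765.9) had 718, 993 and 706 CPM in GFP libraries 1, 2 and 3, against 365 and 560 CPM in bulk libraries 1 and 2. The lowest sorted library thus lay above the highest bulk library. Its mean was 806 ± 162 CPM in GFP (SD, n = 3) and 462 ± 138 CPM in bulk (SD, n = 2), with a log2 difference of 0.80 ± 0.29 (SE, GFP over bulk, edgeR). Mt2 (ENSMUSG00000031762.8) had 689, 800 and 538 CPM in GFP libraries, against 276 and 335 CPM in bulk libraries. GFP 2 was the highest library for both genes and bulk 1 the lowest. The Mt2 mean was 676 ± 131 CPM in GFP and 306 ± 41.8 CPM in bulk, a log2 difference of 1.14 ± 0.26. Mt1 and Mt2 together made up 0.130, 0.166 and 0.130 percent of all counts in GFP libraries, against 0.0675 and 0.0942 percent in bulk libraries. In cell populations such as these, fewer cells of a type and less RNA per cell cannot be told apart.

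**Figure D1:**
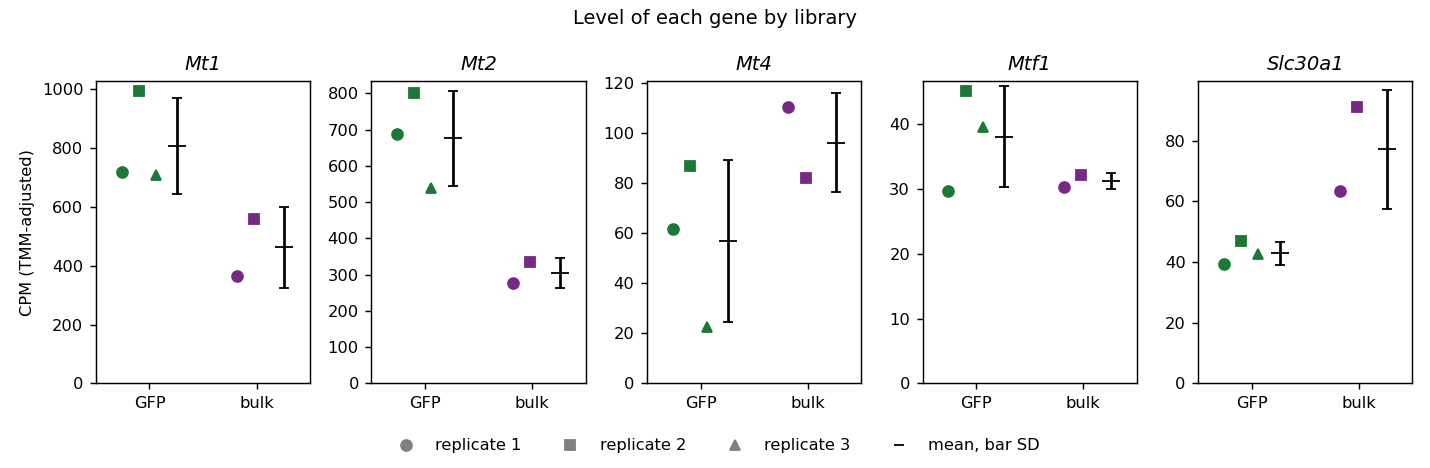
CPM (TMM-adjusted, linear axis from 0) of each gene in the 3 GFP-sorted libraries (left in each panel) and the 2 bulk libraries (right), with symbols for the replicate and the mean with SD in black. Mt1 and Mt2 lie higher in all GFP libraries (538 to 993 CPM over both genes) than in bulk (276 to 560 CPM), Slc30a1 lies lower, and the groups overlap for Mt4 and Mtf1.

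Mt4, the metallothionein of differentiating epithelium, went the other way on average, but with a wide spread among sorted libraries. Mt4 (ENSMUSG00000031757.8) had 61.6, 86.7 and 22.6 CPM in GFP libraries 1, 2 and 3, against 110 and 82.1 CPM in bulk libraries 1 and 2. The groups overlapped through GFP 2 and bulk 2, and GFP 3 was the lowest library. Its mean was 57.0 ± 32.3 CPM in GFP and 96.1 ± 19.9 CPM in bulk, a log2 difference of -0.76 ± 0.47. Without GFP 3 it was -0.38, and without GFP 2 it was -1.19. Scaled by library size alone, Mt4 had 57.0, 80.5 and 23.7 CPM in GFP libraries and 116 and 86.4 CPM in bulk libraries, with no overlap.

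The balance between Mt4 and the other metallothioneins needs no scaling between libraries. Mt4 held 4.19, 4.62 and 1.78 percent of the summed CPM of Mt1, Mt2 and Mt4 in GFP libraries, against 14.7 and 8.40 percent in bulk libraries. The groups did not overlap in this share, although they did in Mt4 alone. The share is built from Mt1 and Mt2, which were higher in every sorted library, and is not a further result. On the log2 scale, Mt4 minus the mean of Mt1 and Mt2 was -3.88 ± 0.77 in GFP and -1.96 ± 0.62 in bulk (mean ± SD of libraries, n = 3 and 2). From the fitted changes, the change of Mt4 minus the mean of those of Mt1 and Mt2 was -1.73, and this ranged from -2.17 to -1.29 when 1 library was left out, with -1.46 without GFP 3. The ratio of Mt2 to Mt1 was 0.959, 0.806 and 0.763 in GFP libraries and 0.756 and 0.599 in bulk libraries. The groups did not overlap in this ratio, but GFP 3 and bulk 1 were nearly equal.

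**Figure D2:**
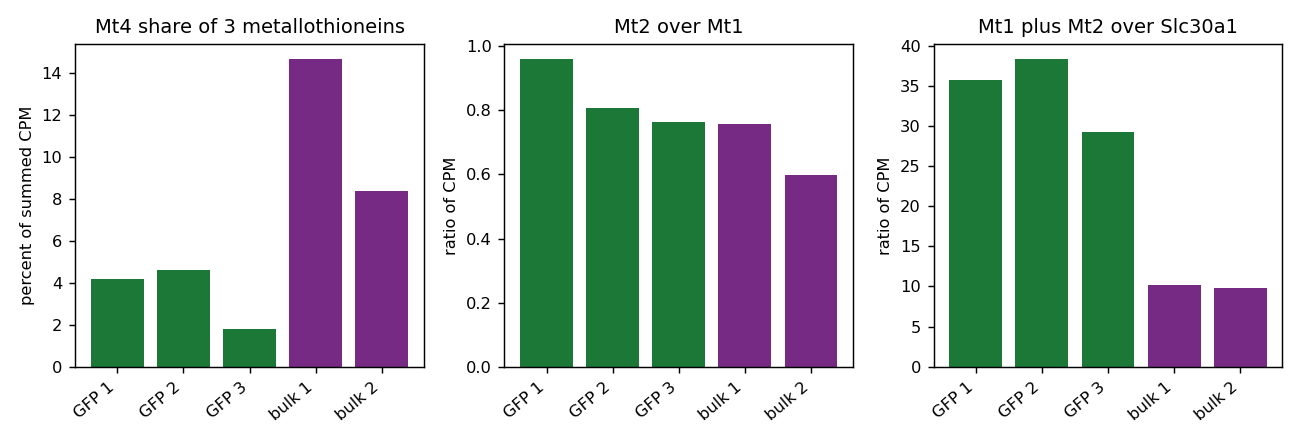
For each library, GFP-sorted in green and bulk in purple, the bars (from 0) give the percent of Mt4 in the summed CPM of Mt1, Mt2 and Mt4, the ratio of Mt2 to Mt1, and the ratio of Mt1 plus Mt2 to Slc30a1. Mt4 makes up 1.78 to 4.62 percent in GFP and 8.40 to 14.7 percent in bulk, and the ratio to Slc30a1 is 29.2 to 38.3 in GFP and 9.83 to 10.1 in bulk.

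Slc30a1, the zinc exporter gene, was lower in every sorted library, opposite in direction to Mt1 and Mt2. Slc30a1 (ENSMUSG00000037434.8) had 39.4, 46.8 and 42.6 CPM in GFP libraries, against 63.3 and 91.0 CPM in bulk libraries. The sorted libraries were close together, while bulk 2 stood above bulk 1. Its mean was 42.9 ± 3.74 CPM in GFP and 77.2 ± 19.6 CPM in bulk, a log2 difference of -0.85 ± 0.21. Without bulk 2 this was -0.57, and without bulk 1 it was -1.08. The ratio of Mt1 plus Mt2 to Slc30a1 was 35.7, 38.3 and 29.2 in GFP libraries, against 10.1 and 9.83 in bulk libraries. The groups stood apart in this ratio, and the bulk libraries lay close together. The separation follows from Mt1 and Mt2 being higher and Slc30a1 lower in every sorted library, and is not a further result.

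Mtf1, which encodes the transcription factor, showed the smallest difference of the 5 genes. Mtf1 (ENSMUSG00000028890.14) had 29.7, 45.02 and 39.5 CPM in GFP libraries, against 30.3 and 32.1 CPM in bulk libraries. GFP 1 lay below both bulk libraries and the other sorted libraries above them. Its mean was 38.1 ± 7.74 CPM in GFP and 31.2 ± 1.22 CPM in bulk, a log2 difference of 0.29 ± 0.22. With each library's trend on gene length and GC content removed, the difference was 0.56 ± 0.16. Its longest transcript, at 7631 bases, is the longest of the 5 genes.

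Libraries that share a title number gave the following ratios, GFP over bulk, although the labels do not say what the number stands for. Libraries with the same number differ in genotype label. Mt1 was 1.97 times as high in GFP 1 as in bulk 1 and 1.77 times as high in GFP 2 as in bulk 2. Mt2 was 2.50 and 2.39 times as high. Slc30a1 stood at 0.622 and 0.514 of the bulk level. Mt4 differed between the pairs, with ratios of 0.559 and 1.06. Mtf1 did too, with ratios of 0.980 and 1.40.

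With edgeR's quasi-likelihood test and Benjamini-Hochberg adjustment over 18583 genes, 1 of the 5 genes, Mt2, passed an adjusted p of 0.05, where 5.28 percent of all genes tested did (0.145 percent higher and 5.14 percent lower). Mt2 did not pass without bulk 1, bulk 2, GFP 1 or GFP 2 (log2 differences of 1.02, 1.28, 1.13 and 1.01), nor with the length and GC trend removed (0.88). In 3 of the 5 genes the libraries of the groups did not overlap, against 33.0 percent of the genes tested, 14.6 percent with GFP above and 18.5 percent with GFP below. Since the genes were chosen with this contrast in view, nothing is read from these counts.

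Per kilobase of the longest coding transcript in GENCODE M21, the order of levels was Mt2, Mt1, Mt4, Slc30a1 and Mtf1 in both groups. The levels were 1322 ± 257, 742 ± 150, 143 ± 81.2, 8.19 ± 0.71 and 4.99 ± 1.01 CPM per kilobase in GFP (SD, n = 3). In bulk they were 598 ± 81.7, 426 ± 127, 242 ± 49.98, 14.7 ± 3.74 and 4.09 ± 0.16 CPM per kilobase (SD, n = 2). Mt4 lay below Mt1 in each library. The order of the Mt1 and Mt2 means in bulk rests on the transcript taken. With the shortest coding transcripts (549 and 388 bases), Mt1 and Mt2 had 1467 ± 296 and 1741 ± 338 CPM per kilobase in GFP. In bulk they had 842 ± 251 and 787 ± 108. With theirs (677 and 636 bases), Slc30a1 and Mtf1 had 63.4 ± 5.52 and 59.9 ± 12.2 CPM per kilobase in GFP. In bulk they had 114 ± 28.9 and 49.1 ± 1.92, so the order of their means held in both groups. Apart from Slc30a1 and Mtf1 in bulk, these means differed by less than their SDs. The SDs are between libraries, however, and do not compare genes within a library.

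Reads could be shared with another gene for 3 of the 5. No window of 50 bases in the longest Mt1 or Mt4 transcript occurs in a transcript of another gene in GENCODE M21, so Mt1 and Mt2 share none at that length. In Mt2, 45.5 percent of such windows lie in the antisense gene Gm45774. Gm45774 had 18.6, 16.1 and 68.8 CPM in GFP libraries and 13.2 and 22.4 CPM in bulk libraries, below Mt2 in each library and highest in GFP 3. The windows that Mtf1 and Slc30a1 share with opposite-strand genes are 8.86 and 8.08 percent. Strandedness is not given in the sources used here, and its part in these values was not tested.

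Marker genes of other cells differed between the groups as well. Hair matrix and inner root sheath markers summed to 25.5 to 28.2 CPM in GFP and 876 to 1634 CPM in bulk. The sums in GFP and bulk were 4.92 to 9.73 and 109 to 263 CPM for melanocytes, 17.1 to 33.1 and 234 to 244 CPM for immune cells, 1.05 to 7.18 and 187 to 194 CPM for red cells, and 218 to 278 and 492 to 531 CPM for sebocytes. Fibroblast markers summed to 8.02 to 117 CPM in GFP and 106 to 142 CPM in bulk, and overlapped. Endothelial and mural markers stayed under 3.4 CPM and skeletal muscle markers under 1.1 CPM in every library. The part of these cells in the values of the metallothionein and Slc30a1 genes was not tested.

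Other genes that move zinc were measured to see whether the Slc30a (export or vesicle loading) and Slc39a (import) families differed as well. Of 24 listed genes with Mt3, a metallothionein known from brain, 21 passed the filter on low counts. By edgeR 0 of the 21 were called, where 5.28 percent of all genes tested were, and DESeq2 and limma-voom also called 0. At an unadjusted p under 0.05 there were 4 of 21 (19.0 percent), against 15.8 percent of all genes tested. The median log2 difference was 0.08, against 0.05 over all genes tested, and 12 genes (57.1 percent) lay above 0, against 54.4 percent of all genes tested. The smallest p belonged to Slc39a13, a zinc transporter of intracellular vesicles, at 23.4, 23.2 and 25.9 CPM in GFP libraries and 14.7 and 17.8 CPM in bulk libraries (log2 difference 0.57 ± 0.20, edgeR adjusted p = 0.196). Next was Slc30a3, which loads zinc into synaptic vesicles, with 10, 7 and 15 counts in GFP and 2 and 5 counts in bulk (log2 difference 1.68 ± 0.69, edgeR adjusted p = 0.284). Slc30a8 and Slc39a12 had no counts and Slc30a10 too few to test.

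**Figure D3:**
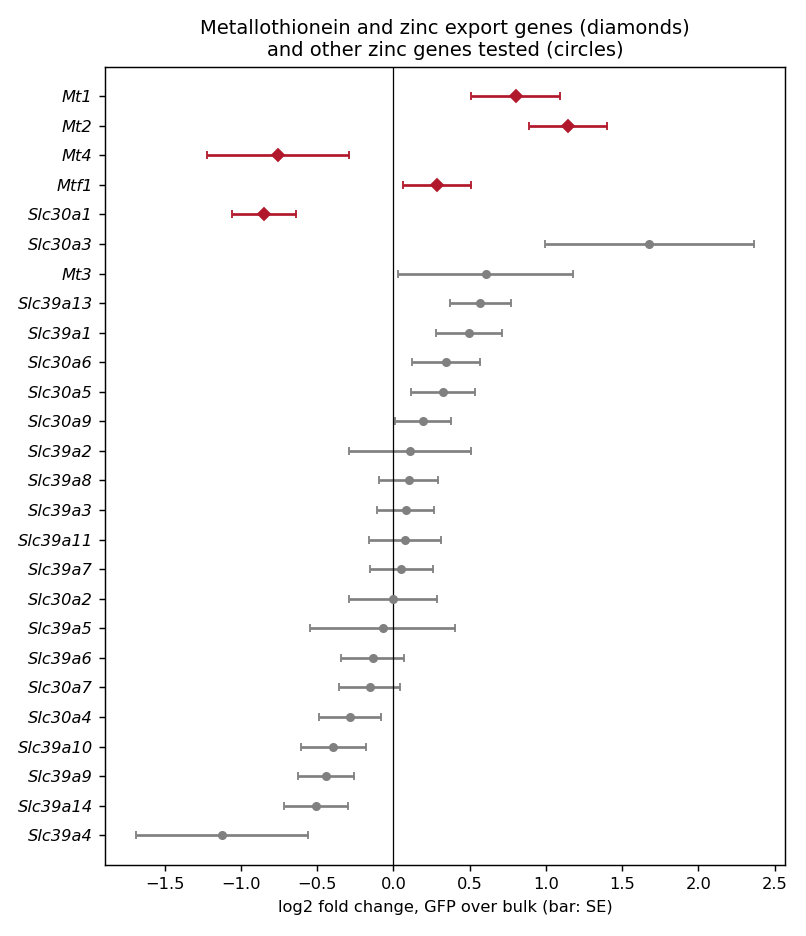
Log2 fold change, GFP over bulk, with SE bars for the 5 metallothionein and zinc export genes (red diamonds, at the top) and the 21 other zinc genes tested (grey circles, in order of change). The zinc list runs from -1.12 (Slc39a4) to 1.68 (Slc30a3) with a median of 0.08, and Mt2 and Slc30a1 stand at 1.14 and -0.85.

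Copper, the other metal that metallothioneins bind, was followed through 10 genes of its uptake, delivery and export. By edgeR 1 of 10 was called, where 5.28 percent of all genes were. Atp7a, the copper pump gene mutated in Menkes disease in humans, fell to 9.03, 10.9 and 13.8 CPM in GFP libraries, against 23.3 and 34.4 CPM in bulk libraries. The groups did not overlap, and the log2 difference was -1.36 ± 0.26 (edgeR adjusted p = 0.0223). It was not called without GFP 1, GFP 2 or bulk 2 (edgeR adjusted p = 0.0593, 0.0635 and 0.221). The superoxide dismutase gene Sod1, whose protein holds copper and zinc, had 118, 86.4 and 57.8 CPM in GFP libraries and 56.9 and 53.1 CPM in bulk libraries (log2 difference 0.67 ± 0.29, edgeR adjusted p = 0.320). Its log2 difference was 0.39 without GFP 1, and 0.89 without GFP 3, where it was called (edgeR adjusted p = 0.0465). Commd1, which acts in copper export, had 32.8 ± 10.03 CPM in GFP and 23.5 ± 5.72 CPM in bulk (SD, n = 3 and 2, edgeR adjusted p = 0.498). The median log2 difference of this list was -0.02.

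Of 11 genes of the oxidative and metal stress response, 0 were called by edgeR, where 5.28 percent of all genes were, while DESeq2 called 1 and limma-voom 0. At an unadjusted p under 0.05 there were 4 of 11, against 15.8 percent of all genes tested. Their median log2 difference was 0.22, with 8 above 0 (72.7 percent, against 54.4 percent of all genes tested). Slc7a11, the cystine importer gene, was at 4.98, 4.37 and 3.85 CPM in GFP libraries and 8.79 and 8.03 CPM in bulk libraries (log2 difference -0.94 ± 0.24, edgeR adjusted p = 0.0733), and was the one that DESeq2 called. With the length and GC trend removed its log2 difference was -0.62 ± 0.32 (edgeR adjusted p = 0.379). Nfe2l2, the gene of the antioxidant transcription factor NRF2, was at 184, 171 and 204 CPM in GFP libraries and 136 and 96.5 CPM in bulk libraries (log2 difference 0.68 ± 0.22, edgeR adjusted p = 0.158). The sorted libraries were above the bulk ones for Nfe2l2 and below them for Slc7a11. The others at an unadjusted p under 0.05, Nqo1 and Hmox1, had log2 differences of 0.81 ± 0.32 and 0.78 ± 0.34 (edgeR adjusted p = 0.2625 and 0.3141). For both of these the groups overlapped.

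Glucocorticoids also induce Mt1 and Mt2. Of 11 glucocorticoid response genes 0 were called by edgeR, where 5.28 percent of all genes tested were, and DESeq2 and limma-voom called 0. At an unadjusted p under 0.05 there were 3 of 11, against 15.8 percent of all genes tested. Their median log2 difference was 0.21, with 8 above 0 (72.7 percent, against 54.4 percent of all genes tested). The transcription factor gene Cebpd had 97.4, 86.4 and 57.1 CPM in GFP libraries and 54.6 and 33.7 CPM in bulk libraries (log2 difference 0.86 ± 0.30, edgeR adjusted p = 0.195). Cebpd was called with no filter on low counts (edgeR adjusted p = 0.0107). With a block on the shared title numbers, Cebpd was called higher and Fkbp5, described next, lower. That fit called 3040 of 18583 genes higher and 3652 lower. Fkbp5, whose protein is a co-chaperone of the glucocorticoid receptor, had 12.4, 10.3 and 8.64 CPM in GFP libraries and 17.4 and 14.5 CPM in bulk libraries (log2 difference -0.61 ± 0.23, edgeR adjusted p = 0.244). Klf9, the other gene at an unadjusted p under 0.05, had 177.8, 203.7 and 382.5 CPM in GFP libraries and 144.8 and 137.8 CPM in bulk libraries. Its log2 difference was 0.85 ± 0.34 (edgeR adjusted p = 0.270). Of these 3 genes, Cebpd and Klf9 thus lay above 0 and Fkbp5 below it.

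Likeness of pattern was measured as the root mean square difference of log2 CPM over the 5 libraries, each gene centred on its own mean. It was taken among 8848 genes whose log2 CPM averaged at least 3. The 5 genes themselves, unnamed genes, predicted models and pseudogenes were left out of the 8848. By this measure Mt1 and Mt2 were 0.22 apart, and 44 of the 8848 genes were nearer to Mt1 and 19 nearer to Mt2. The nearest to Mt1 were Prr7 (0.088), Slc16a3, a lactate exporter gene (0.102), and Trim47 (0.115). The nearest to Mt2 were Pxdc1 (0.093), the stress-associated keratin gene Krt16 (0.166) and Tnfrsf4 (0.166). Mt4 was 1.06 from Mt1 and 1.14 from Mt2, so far that 8717 and 8680 of the genes were nearer to these. None of the 8848 genes came closer to Mt4 than 0.319, the distance of the cell cycle inhibitor gene Cdkn2b, followed by Kif26b (0.326) and Fam213b (0.333). Slc30a1 was nearest to Farp2 (0.044), Sema4g (0.046) and Neo1 (0.062), and Mtf1 to Tmem43 (0.014), Ssh1 (0.064) and Nfia (0.070). This likeness covers 5 libraries in 2 groups and is a description.

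The direction of each of the 5 differences was the same in all 15 alternative settings, which reuse the same 5 libraries. For Mt1, Mt2 and Slc30a1 the groups did not overlap, so leaving out a library could hardly reverse it. Mt1 ranged from 0.53 to 1.13, Mt2 from 0.88 to 1.29, Mt4 from -1.19 to -0.38, Mtf1 from 0.15 to 0.59 and Slc30a1 from -1.08 to -0.57 on the log2 scale.

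**Figure D4:**
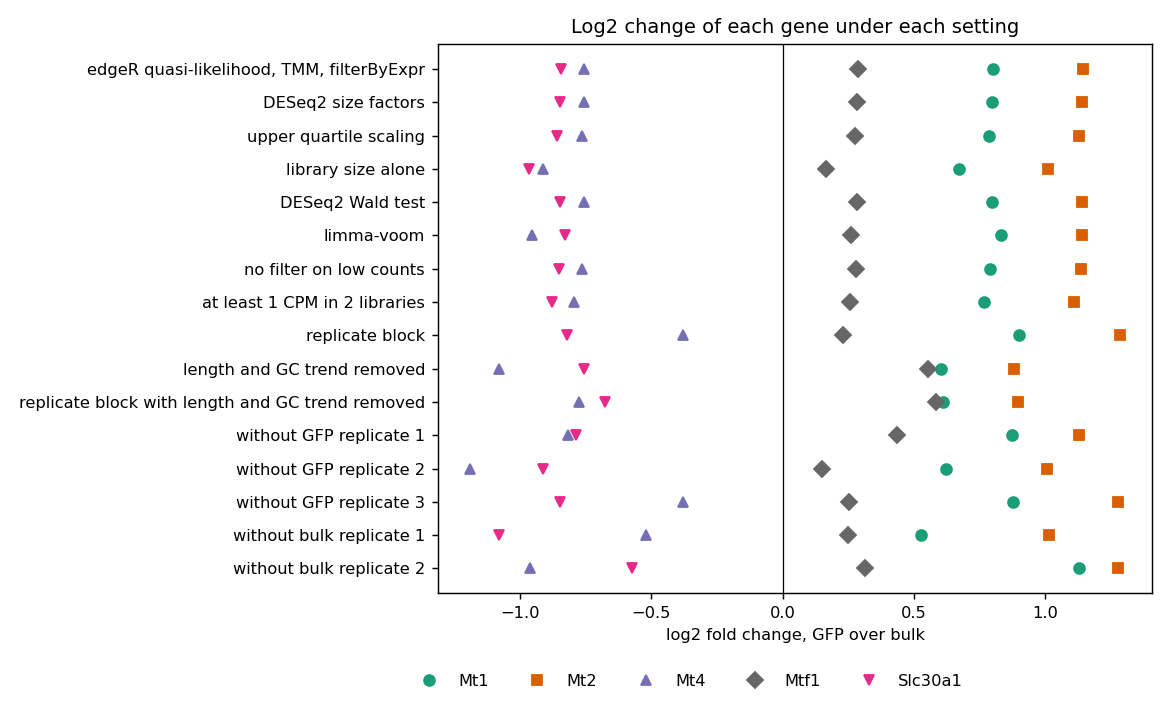
Log2 fold change, GFP over bulk, of each of the 5 genes (symbols) under the main setting (top) and 15 alternatives. Mt1, Mt2 and Mtf1 stay right of 0 and Mt4 and Slc30a1 left of it, and Mt4 moves most, from -1.19 without GFP replicate 2 to -0.38 with the replicate block.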

How the data were processed

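The deposited table holds raw counts per Ensembl gene ID, 1 column per library, not normalized by the authors. Alignment used STAR and build GRCm39, per the submitters' processing notes. No counting tool, annotation release or strand setting is given in the sources used here. Symbols and lengths came from GENCODE M21 (GRCm38) by gene ID, and 52073 of 56691 IDs matched. Promoter windows are RefSeq's, on GRCm38.p6.

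Genes were kept by filterByExpr (minimum count 10, minimum total 15) and tested with edgeR 4.0.16 in R 4.3.3, with TMM scaling, a group term, the two-sided quasi-likelihood test and 3 residual degrees of freedom. The SE is the log2 change divided by the square root of the F statistic. The function was tested on simulated data. Replicate pairs differed beyond sampling noise, with chi-square over degrees of freedom of 133.5 to 407.0. The labels do not tie libraries to separate animals, so p-values measure only the spread between these libraries. Intervals were not computed, and reads carry no molecular identifiers.

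Alternatives were other scalings and filters, DESeq2 1.42.0, limma-voom 3.58.1, a replicate block, a robust loess trend on length and GC (span 0.3), and leaving out each library. Of list genes, the text names those called and the 2 with the smallest p among the rest. For the stress and glucocorticoid lists it also names the others at an unadjusted p under 0.05. For likeness it names the 3 nearest genes, predicted models and pseudogenes left out. The 5 genes, the lists and the rules were chosen with earlier results of these data known.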

Additional observations from a re-analysis of the deposited data

How the results depend on the processing

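The direction of the 5 log2 differences and of the contrast of Mt4 with Mt1 and Mt2 was the same in all 15 alternatives. These reuse the same 5 libraries. Mt1 and the contrast moved by less than 1 replicate SD in all 15. So did Mt4, but its SD of 0.84 is larger than its difference of -0.76, which was -0.38 with the replicate block and without GFP replicate 3. Beyond 1 SD, Mt2 was at 0.88 and Mtf1 at 0.56 with the length and GC trend removed, Mtf1 was at 0.59 with that trend and the replicate block, and Slc30a1 was at -0.57 without bulk replicate 2, in a range from -1.08 to -0.57 with 1 library left out.

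Over all genes 27 were called higher and 955 lower. There were 10 higher with library size alone, 188 with the DESeq2 Wald test, 71 with the trend removed, and 258 higher and 1660 lower with no filter on low counts. With 1 library left out, 1 to 96 were called higher and 479 to 1109 lower. Of the oxidative and metal stress list 1 gene was called with library size alone, 1 with the DESeq2 Wald test, 3 with no filter, and 0 to 1 with 1 library left out. Of the glucocorticoid list 2 were called with no filter, and of the copper list 0 to 2 with 1 library left out.

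The numbers of bulk 1 and GFP 1, and of bulk 2 and GFP 2, are shared in the titles, and the labels do not say that they pair the libraries. Libraries that share a number differ in genotype label. Across 18583 genes, bulk 1 minus bulk 2 correlated with GFP 1 minus GFP 2 (Pearson r = 0.474, genes not being independent). With the replicate block, 3040 of 18583 genes were called higher and 3652 lower. Of the zinc, copper, stress and glucocorticoid lists, 8 of 21, 5 of 10, 6 of 11 and 6 of 11 genes were called. With so many of all genes called, nothing is read from these list counts. With the block and the trend removed the same counts, in that order, were 2479, 2941, 2, 3, 4 and 6. Of the genes called with the block alone, 3, 4, 5 and 5 of the zinc, copper, stress and glucocorticoid lists were higher, and 5, 1, 1 and 1 lower. Among these, Slc39a13, Sod1, Commd1, Nfe2l2 and Cebpd were called higher, and Atp7a, Slc7a11 and Fkbp5 lower. The block leaves 2 pairs and adds nothing from GFP 3. The causes of these shifts were not tested. Without bulk 1 or bulk 2 the lone bulk library is assumed to vary like the GFP libraries. Depth was not the limit for the 5 genes, which had 1815 counts or more in each library, while Slc30a3 rests on 2 to 15 counts.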
